A study of Homo sapiens with 6 samples.

Results

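JUN WT was set directly against JUN AA, 2 of the 6 RNA-seq libraries of this series, over the 10311 of 25368 gene symbols with a mean of at least 1 FPKM in the 3 libraries of their table. FPKM is the level of a gene in fragments per kilobase of exon, scaled to the mapped fragments of the library. All libraries came from MRC5 cells, human embryonic lung fibroblasts immortalized with hTERT. The 3 libraries of this table were from cells infected for 2 h with adenovirus carrying an empty vector (control), FLAG-tagged wild-type JUN (JUN WT) or FLAG-tagged JUN with Ser63 and Ser73 both changed to alanine (JUN AA), and cultured for 3 days, so that the control was infected too. The control was left out of each difference and is given only as a level. The 3 other libraries were MRC5 without treatment, MRC5 kept for 7 days in medium conditioned by MDA-MB-231 breast cancer cells (induced CAFs, iCAFs), and iCAFs given the JNK inhibitor JNKi at 1 µM for 48 h. Each condition had 1 library. No difference below has a replicate check or a test, and all differences describe these libraries.

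JUN is a subunit of AP-1, a dimeric transcription factor built from members of the JUN, FOS and ATF families. JUN N-terminal kinases (JNK) phosphorylate the transactivation domain of JUN at Ser63 and Ser73, and alanine at these positions cannot be phosphorylated. In fibroblasts AP-1 is known for the control of matrix proteases, growth factors and inflammatory genes. The question set by the design was which genes differed between cells given JUN with and without the 2 phosphorylation sites. In the genome the 2 serine codons lie in the single exon of JUN, on the minus strand of chromosome 1 (GRCh37; gene from 59242517 to 59249720). Codons 59 to 77 of the 331 in the coding sequence are shown because they carry both mutated positions, with the serine codons 63 and 73 in capitals. The stretch is chr1:59248512-59248568, and the bases used in the adenovirus were not analysed here.
JUN, codons 59 to 77: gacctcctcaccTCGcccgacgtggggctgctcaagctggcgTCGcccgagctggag

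JUN mRNA itself was checked first. JUN was at 25.5 FPKM in the control against 4543 with JUN WT and 291 with JUN AA. Both JUN libraries were thus above the control, and JUN WT held 15.6 times as much JUN mRNA as JUN AA. FPKM per gene do not separate introduced from endogenous JUN. The amount of JUN and the 2 serines changed together, and their parts in every difference below cannot be told apart.

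Fibroblast identity was checked in all 3 libraries with markers of the cells that a culture could hold. All 11 fibroblast markers passed the filter, among them VIM (vimentin) at 1480, 2927 and 1591 FPKM in the control, JUN WT and JUN AA. Their median difference between JUN WT and JUN AA was -0.17 as deposited and 0.10 at equal FPKM sums, against 0.18 and 0.47 for all genes. As deposited, LUM was the only one at least 2-fold apart. None of 10 epithelial markers passed, and the largest of their values was 1.09 FPKM. Of 10 endothelial and 10 leukocyte markers, EGFL7 (19.5, 10.7 and 20.9 FPKM) and CD68 (32.6, 85.7 and 31.1 FPKM) passed, while the defining markers CDH5, PECAM1 and PTPRC were at or below 0.0213 FPKM in every library. In bulk samples, fewer cells of a type and less RNA per cell cannot be told apart.

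Differences were taken as log2(FPKM + 1) in JUN WT minus that in JUN AA, a scale that understates the difference of genes with low values, and a gene counted as 2-fold apart at a difference of 1 or more in size. JUN WT was at least 2-fold higher for 686 genes (6.65% of those passing) and at least 2-fold lower for 578 (5.61%). For 44 of the 686 the control and JUN AA were both under 1 FPKM, and for 17 of the 578 the control and JUN WT were. Such genes passed through 1 JUN library alone, so their direction was set by the filter. The median difference over all genes was 0.18, with quartiles at -0.21 and 0.53. The split rested on scaling, because the FPKM summed to 498514 for JUN WT and 613184 for JUN AA. With both libraries rescaled to equal sums, the median of all genes moved by 0.28 to 0.47, and 1770 genes (17.2%) were higher and 364 (3.53%) lower. With differences centred on the median gene, 411 (3.99%) were higher and 822 (7.97%) lower. The share of higher genes among those 2-fold apart was 54.3% as deposited, 82.9% at equal sums, 33.3% centred, 61.0% with a pseudocount of 0.1 and 45.2% with trends in transcript length and GC content removed. Groups of genes are therefore given below with their median beside the 0.18 of all genes. Medians at equal sums are to be read beside the 0.47 of all genes in that setting.

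**Figure D1:**
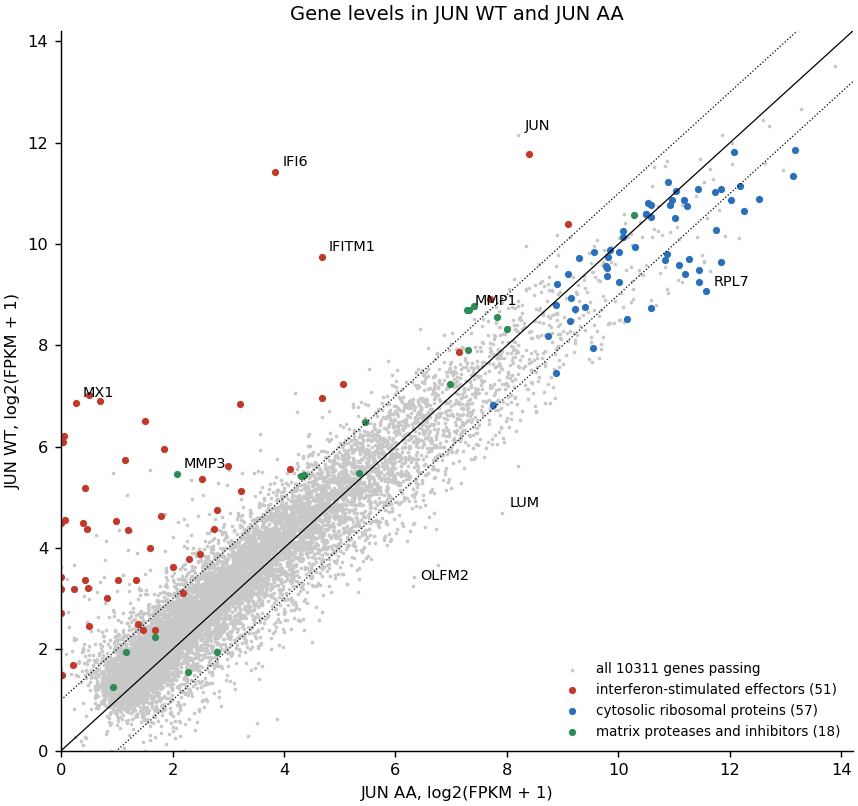
Level of each of the 10311 genes in JUN AA (x axis) and JUN WT (y axis), both as log2(FPKM + 1), with 1 library on each axis; the solid line marks equal levels and the dotted lines a 2-fold difference on this scale. The interferon-stimulated effectors (red) lay above the upper dotted line for 47 of 51 genes, and 20 of the 57 ribosomal protein genes (blue) lay below the lower one.

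The 12 largest higher and 12 largest lower genes at a mean of at least 5 FPKM over JUN WT and JUN AA were of different kinds. All 12 of the higher ones were interferon-stimulated or interferon-regulating genes. The 12 lower ones were RPPH1, LUM, PRRX2, OLFM2, DNAJC12, FAM229B, EIF3E, RPL7, FGF7, LINC00998, RPL9 and RPS3A, which span a noncoding RNA, matrix and growth factor genes and translation genes. Of the 50 largest higher differences without regard to level, 33 were members of the 2 interferon lists described next, and so were 44 of the 100 largest.

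**Figure D2:**
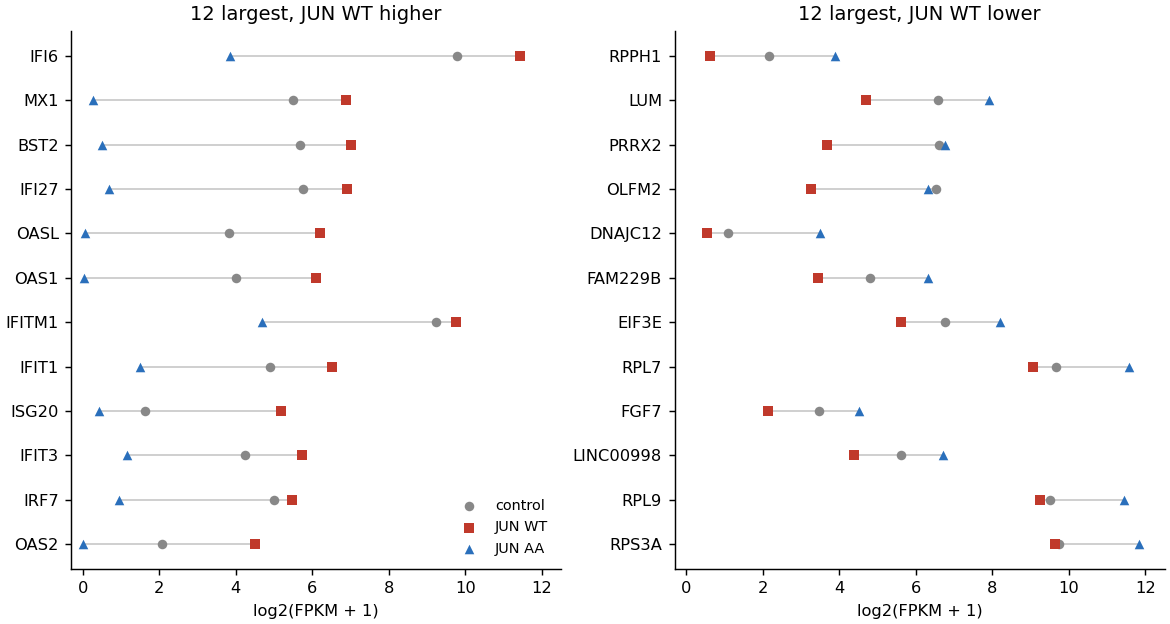
Level in log2(FPKM + 1) of the 12 genes with the largest higher (left) and lower (right) difference of JUN WT from JUN AA, in the control (grey circles), JUN WT (red squares) and JUN AA (blue triangles), 1 library each. JUN WT was the highest of the 3 for each gene on the left, where JUN AA was the lowest, and JUN WT was the lowest for each gene on the right.

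Interferon-stimulated genes made up the most different group. Type I interferon binds its receptor, activates transcription factors of the STAT and IRF families, and switches on a broad set of antiviral effectors through a promoter element called ISRE. Of 52 effectors listed, 51 passed the filter, 47 were at least 2-fold higher in JUN WT and none was lower. Their median difference was 2.72 against 0.18 for all genes, and the lowest member, GBP2, was at 0.70. At equal sums all 51 were at least 2-fold higher, with a median of 3.28. For 2 of the 51 the control and JUN AA were both under 1 FPKM. These 2 passed through JUN WT alone and so had to differ.

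IFI6, a mitochondrial protein induced by interferon (chromosome 1, 27992575 to 27998723, GRCh37), had the largest difference of all named genes. It was at 875 FPKM in the control against 2751 with JUN WT and 13.4 with JUN AA, a difference of 7.58. MX1, a GTPase that blocks viral replication, was at 44.4, 116 and 0.203 FPKM in the control, JUN WT and JUN AA. BST2, which tethers virus particles to the cell surface, was at 50.1, 129 and 0.419 FPKM likewise. In all 3 genes JUN WT was above the control and JUN AA far below it.

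IFI27 was at 52.8, 118 and 0.616 FPKM in the control, JUN WT and JUN AA. OAS1, an enzyme that makes the activator of RNase L, was at 15.1, 67.0 and 0.0245 FPKM, and its relative OASL at 13.2, 72.96 and 0.0364 FPKM. OAS2 of the same family was at 3.24 FPKM in the control and 21.7 FPKM in JUN WT, and was listed at 0 in JUN AA. The OAS family thus ranged from clear levels in JUN WT to levels near or at 0 in JUN AA.

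IFITM1, a membrane protein that hinders virus entry, was at 598, 858 and 24.6 FPKM in the control, JUN WT and JUN AA, a difference of 5.07. IFIT1, which binds viral RNA ends, was at 28.5, 90.1 and 1.84 FPKM, and IFIT3 at 17.8, 52.1 and 1.22 FPKM. ISG20, an RNA exonuclease, was at 2.07, 35.4 and 0.353 FPKM. MX1, IFIT3 and IFITM1 share exon bases with other genes on the annotation used, and the IFITM and IFIT genes have close relatives, so their reads may have been divided among them.

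The control lay between JUN AA and JUN WT for 47 of the 51 effectors (92.2%), against 74.5% of the 686 higher genes, most effectors among them, and 37.2% of all genes. For JUN WT the median difference from the control was 1.00, and for JUN AA it was -1.84. These 2 comparisons share the control library. For all genes the same medians were 0.15 and -0.02.

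The ligands, sensors and factors that lie upstream of these effectors were a separate list, of which 18 of 28 passed, 8 were higher and none was lower. Their median difference was 0.95. At equal sums 12 of the 18 were higher, with a median of 1.31. Among ligands, IFNB1 (interferon beta) was at 0.381 FPKM in the control and 11.3 FPKM in JUN WT and was listed at 0 in JUN AA, and it was the only one of 7 ligands to pass. IFNB1 passed through JUN WT alone and so had to differ, and it is among the 8 higher genes. Of the sensors of viral RNA, DDX58 (RIG-I) was at 4.06, 16.6 and 0.752 FPKM and IFIH1 (MDA5) at 3.10, 9.43 and 0.0794 FPKM. As deposited none of the 4 receptor subunits and JAK kinases was 2-fold apart, with a median of 0.60. At equal sums 2 of the 4 were higher, with a median of 0.92.

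Among the factors, IRF7, which drives interferon transcription, was at 30.9, 43.4 and 0.916 FPKM, a difference of 4.53. IRF9 was at 51.1, 59.8 and 10.9 FPKM. IRF3, the factor that starts the first wave of IFNB1 transcription, was at 38.8, 34.5 and 34.7 FPKM, with a difference of -0.01 as deposited and the opposite sign at equal sums.

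MHC class I genes, which present peptides on the cell surface, followed in part. Of 20 passing genes of 23, 9 were higher and none lower as deposited, with a median of 0.96. At equal sums 16 were higher, with a median of 1.30, and centred on the median gene 5 were. Over all genes 6.65% were higher as deposited, 17.2% at equal sums and 3.99% centred. TAP1, the peptide transporter, was at 12.7, 20.9 and 3.79 FPKM in the control, JUN WT and JUN AA, and TAPBPL at 6.30, 10.9 and 2.67 FPKM. HLA-B was at 77.8, 63.5 and 20.4 FPKM, so that JUN WT was below the control here, and CALR, a chaperone of the loading complex, was at 840, 1155 and 475 FPKM. B2M, the shared light chain, was at 1029, 1128 and 1562 FPKM, a difference of -0.47.

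Promoter sequences were read for the genes that a symbol matched in RefSeq windows of 250 bases before to 50 bases after the start (GRCh38.p14), 7759 of the 10311. The stretches below lie wholly before the start. They were picked among effectors and chemokines with large differences because they hold a match, so the matches in them are no finding, and OAS1, with a larger difference than IFIT1, had no match in its window. Capitals mark the core of the ISRE, GAAANNGAA read on either strand, in the first 5, and the AP-1 letters TGANTCA in CXCL8. The stretches are chr1:27672263-27672362 on the minus strand for IFI6, chr10:89392493-89392552 on the plus strand for IFIT1, chr19:17405721-17405780 on the minus strand for BST2, chr14:94110611-94110670 on the plus strand for IFI27, chr4:76023673-76023732 on the minus strand for CXCL10 and chr4:73740419-73740478 on the plus strand for CXCL8.
IFI6: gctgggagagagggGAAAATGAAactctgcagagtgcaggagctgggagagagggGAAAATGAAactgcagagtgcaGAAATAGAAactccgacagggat
IFIT1: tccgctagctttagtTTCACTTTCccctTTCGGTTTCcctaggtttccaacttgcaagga
BST2: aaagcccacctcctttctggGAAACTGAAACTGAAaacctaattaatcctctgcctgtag
IFI27: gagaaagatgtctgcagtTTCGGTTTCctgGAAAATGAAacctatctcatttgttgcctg
CXCL10: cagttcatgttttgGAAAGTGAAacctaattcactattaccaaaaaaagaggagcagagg
CXCL8: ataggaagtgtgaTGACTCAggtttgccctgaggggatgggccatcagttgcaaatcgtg

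IFI6 held 3 matches of the ISRE core in its stretch, BST2 2 overlapping ones, IFIT1 and IFI27 2 each and CXCL10 1. Over all windows of 300 bases, the ISRE core was found in 484 of 7759 genes (6.24%), in 73 of 508 higher genes (14.4%) and in 29 of 381 lower genes (7.61%). On the effector list it was found in 28 of 39 genes (71.8%), and among higher genes outside that list in 47 of 471 (9.98%). It was also found in 9 of 45 ribosomal protein genes, none of which was 2-fold higher. The AP-1 letters were found in 372 of 7759 genes (4.79%), in 42 of 508 higher genes (8.27%) and in 16 of 381 lower genes (4.20%). They were found in 6 of 39 effectors (15.4%) and in 37 of 471 higher genes outside that list (7.86%). The CRE letters TGACGTCA, bound by ATF and JUN dimers, were found in 3.20% of all genes, 2.76% of the higher and 2.89% of the lower genes. Median GC content of the windows was 65.7% for all genes, 64.3% for the higher, 62.7% for the lower and 55.7% for the effector genes, and its part in these shares was not tested. A match is a description of letters and not a bound site.

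Among other inflammatory genes, chemokines and NF-kB genes had several members higher in JUN WT, many at low levels. Chemokines attract leukocytes, and of 25 listed 7 passed, 5 were higher and none lower, with a median of 1.503. Control and JUN AA were both under 1 FPKM for CXCL8 and CXCL3, which passed through JUN WT alone and so had to differ, and the count is no support. Relative to all genes the list median was 1.32, and 0.35 with no filter on level. CCL5 was at 2.72 and 8.66 FPKM in the control and JUN WT and was listed at 0 in JUN AA, and CXCL10 was at 5.64, 7.82 and 0.555 FPKM. CXCL8, a neutrophil attractant with an AP-1 match 137 bases before its start, was listed at 0 in the control and was at 4.46 FPKM with JUN WT and 0.103 with JUN AA. CXCL3 was at 0.159, 2.96 and 0.397 FPKM.

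Of 36 cytokines and IL-1 family members 18 passed, and 3 were higher and none lower, with a median of 0.31. Relative to all genes this was 0.13, and -0.43 with a filter of 5 FPKM. IL6 was at 0.805, 2.43 and 0.251 FPKM in the control, JUN WT and JUN AA, CSF1 at 6.63, 7.52 and 2.89 FPKM and IL15 at 1.47, 2.36 and 0.553 FPKM. Of these, IL6 passed through JUN WT alone and so had to differ. IL1B did not pass the filter. Its values were 0.228 FPKM with JUN WT and 0.119 FPKM with JUN AA, and 0 was listed for the control. LIF, a gp130 ligand, was at 3.04, 10.9 and 8.89 FPKM, so that both JUN libraries were above the control and differed by 0.26.

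NF-kB subunits and their feedback inhibitors had 13 of 17 genes passing, 5 higher and none lower, with a median of 0.71. Relative to all genes this was 0.53, and 0.04 with a filter of 5 FPKM. RELB was at 10.9, 19.6 and 6.09 FPKM, NFKB2 at 8.97, 14.8 and 5.48 FPKM and NFKBIA, the inhibitor that NF-kB itself induces, at 11.8, 19.6 and 7.63 FPKM. NFKBIE was at 2.54, 4.99 and 1.04 FPKM. Among prostaglandin enzymes and receptors 12 of 16 passed, with the receptor PTGIR higher (2.1003, 6.58 and 1.35 FPKM), the synthase PTGES2 lower (55.6, 39.8 and 87.9 FPKM) and a median of 0.10. At equal sums PTGES2 was at -0.84, and none of this list was 2-fold lower.

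The AP-1 family itself had 14 of 19 members passing, 4 higher and none lower, and a median of 0.25. Beside JUN these were BATF2 (2.01, 11.7 and 0.171 FPKM in the control, JUN WT and JUN AA), ATF3 (7.87, 38.2 and 6.05 FPKM) and the FOS relative FOSL1 (56.9, 54.4 and 26.2 FPKM). JUN WT was above the control for BATF2 and ATF3, while for FOSL1 it was level with the control and JUN AA was below. JUND was at 124, 45.0 and 83.8 FPKM, a difference of -0.88.

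Of the kinases and scaffolds of the JNK pathway 15 of 16 passed and as deposited none was 2-fold higher, with a median of 0.28. Relative to all genes this was 0.10, and -0.51 with a filter of 5 FPKM. The scaffold MAPK8IP1 was lower at 12.7, 9.85 and 24.6 FPKM, although not 2-fold so at equal sums, where its difference was -0.99. MAPK9, which encodes JNK2, was at 2.44, 5.11 and 2.39 FPKM, and at equal sums it was 2-fold higher with a difference of 1.20. Genes that restrain MAP kinases had a median of 0.69, with 3 of 12 passing genes higher and none lower. These were SPRY2 (4.05, 18.9 and 6.59 FPKM), DUSP6 (5.33, 9.89 and 3.51 FPKM) and DUSP5 (20.04, 41.9 and 18.3 FPKM), and in all of them JUN WT was the highest library.

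**Figure D3:**
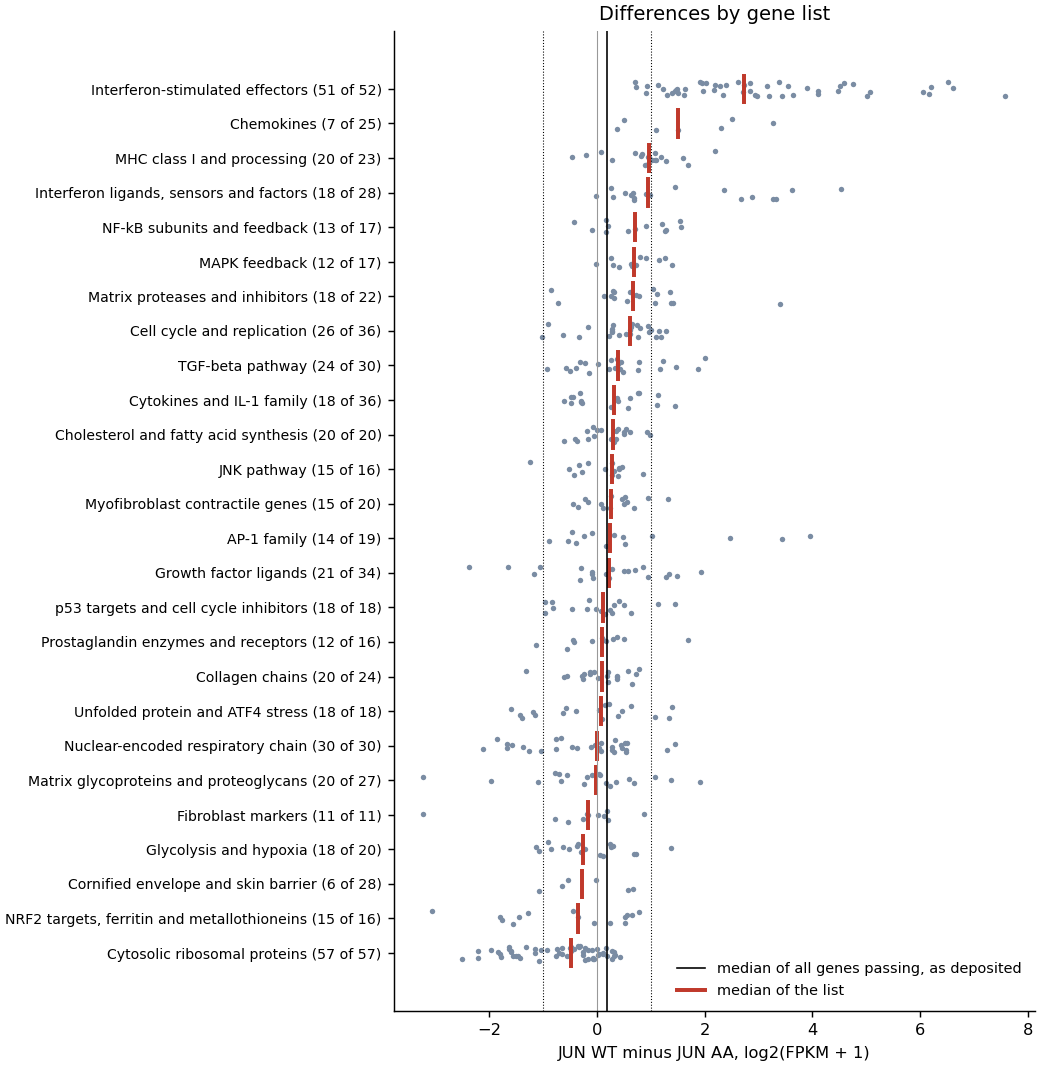
Difference between JUN WT and JUN AA in log2(FPKM + 1) for each gene of the 25 lists and of the fibroblast markers (grey points, jittered vertically), with the number passing of the number listed; red bars are list medians, the black line is the median of all genes (0.18) and dotted lines mark a 2-fold difference. The effector list (median 2.72) lay farthest to the right, and the ribosomal protein list (-0.49) farthest to the left.

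Proteases that break down matrix, and their inhibitors, leaned to JUN WT, with 7 of 18 passing genes higher, none lower and a median of 0.67. MMP3 (stromelysin) was at 3.61 FPKM in the control against 43.4 with JUN WT and 3.21 with JUN AA, a difference of 3.40. MMP1 (interstitial collagenase) was at 31.1, 414 and 155 FPKM, so that JUN AA was also above the control. MMP2 (gelatinase A) was at 319, 437 and 169 FPKM, and here the control lay between the 2 JUN libraries.

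The structural matrix was split. As deposited none of 20 passing collagen chains was 2-fold higher and COL15A1 was lower (5.45, 0.395 and 2.48 FPKM), with a median of 0.10. At equal sums 2 were higher, COL6A1 at 1.07 and COL16A1 at 1.03. The control was the highest of the 3 libraries for all 20 collagens, against 26.6% of all genes with the control at or above both others, and COL1A1, outside the naming rule, was at 2388, 1014 and 1208 FPKM. COL11A1 was at 10.2, 5.40 and 4.53 FPKM. COL6A1 and COL6A2, chains of microfibrillar collagen, were at 451, 250 and 146 FPKM and at 1041, 619 and 395 FPKM.

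Of 20 passing glycoproteins and proteoglycans 3 were higher, 3 were lower and the median was -0.02 (0.23 at equal sums). LUM (lumican, a proteoglycan that spaces collagen fibrils; chromosome 12, 91496406 to 91505271, GRCh37) was at 94.5, 24.9 and 240 FPKM, a difference of -3.22. JUN WT thus lay below the control and JUN AA above it. The same order held for CLEC3B, which was at 5.49, 4.23 and 19.4 FPKM. The glycoproteins TNC (31.3, 95.1 and 24.6 FPKM) and FBLN5 (65.2, 70.2 and 26.4 FPKM) went the other way. The glycoprotein POSTN, outside the naming rule, had the order of LUM, at 56.2, 42.4 and 91.3 FPKM. Its difference was -1.09 as deposited and -0.80 at equal sums. The 7 proteoglycans and link proteins had a median of -0.55 and the 13 glycoproteins one of 0.24, beside 0.18 for all genes. HAPLN1 did not pass, at 0.0387 to 0.0586 FPKM in the 3 libraries.

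Contractile genes of myofibroblasts showed no large difference between the JUN libraries, with 1 of 15 passing genes higher, none lower and a median of 0.26. The 1 higher gene was SYNPO2, at 0.279, 2.48 and 0.399 FPKM, which passed through JUN WT alone and so had to differ. ACTA2, the smooth muscle actin that marks myofibroblasts, was at 874 FPKM in the control against 336 with JUN WT and 280 with JUN AA. Both JUN libraries were thus below the control and differed by 0.26. ACTA2 overlaps an exon of FAS in the GRCh37 annotation.

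The TGF-beta pathway had 5 of 24 passing genes higher, none lower and a median of 0.38. FST (follistatin), which binds activin, was at 17.7, 24.5 and 5.33 FPKM, and INHBA, an activin subunit, at 6.89, 9.96 and 2.98 FPKM. GREM1, a BMP inhibitor, was at 18.4, 33.4 and 13.7 FPKM, and GDF15 at 143, 103 and 27.1 FPKM. In GDF15 both JUN libraries were below the control.

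Growth factor ligands were divided, with 4 of 21 passing genes higher, 4 lower and a median of 0.22. VEGFC, a lymphatic growth factor, was at 12.3 FPKM in the control against 32.5 with JUN WT and 12.2 with JUN AA, a difference of 1.35. ANGPTL4 was at 4.805, 7.85 and 1.33 FPKM and HBEGF, a ligand of the EGF receptor, at 1.51, 5.64 and 1.36 FPKM. FGF7, a fibroblast factor for epithelia, was lower at 10.04, 3.41 and 21.8 FPKM, and IGFBP2 was lower at 9.16, 1.60 and 7.196 FPKM. FGF1 was at 3.87, 3.22 and 2.63 FPKM.

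PRRX2, a homeobox factor of mesenchyme, and OLFM2 were at control levels in JUN AA. PRRX2 was at 96.9, 11.8 and 107 FPKM in the control, JUN WT and JUN AA, and OLFM2 at 91.5, 8.56 and 78.2 FPKM. For these genes the JUN WT library alone stood apart. DNAJC12 (1.13, 0.463 and 10.4 FPKM) differed in the other way, with JUN AA the library farthest from the control. For FAM229B (26.7, 9.83 and 79.3 FPKM) both JUN libraries were more than 2-fold from the control, JUN WT by -1.35 and JUN AA by 1.54.

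Cell cycle and replication genes had 5 of 26 passing genes higher, 1 lower and a median of 0.61 as deposited. These counts rested on scaling, with 10 higher and 0 lower at equal sums. Centred on the median gene, 1 was higher and 2 were lower. The 4 passing mitosis genes had a median of 0.13, beside 0.18 for all genes. CCND1 (cyclin D1) was at 85.5, 177 and 81.6 FPKM, CCNE1 (cyclin E1) at 1.21, 3.76 and 0.953 FPKM, CDK2 at 3.58, 6.71 and 2.40 FPKM and the helicase subunit MCM3 at 1.47, 3.59 and 1.07 FPKM. In these 4 genes JUN AA lay below the control and JUN WT above it. Among 18 p53 targets and inhibitors of the cycle 2 were higher and none lower, with a median of 0.12, namely GADD45A (42.3, 109 and 39.1 FPKM) and CDKN2C (1.26, 6.33 and 2.35 FPKM).

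The unfolded protein response and the amino acid response through ATF4 parted. All 18 genes passed, with 3 higher, 5 lower and a median of 0.07. The 8 genes of endoplasmic reticulum stress had a median of 0.43 and 3 higher genes, such as the disulfide isomerase PDIA4 (32.3, 55.7 and 20.6 FPKM). The 10 genes of the ATF4 branch had a median of -0.89 and 5 lower genes, with the serine synthesis enzymes PHGDH (153, 33.2 and 102 FPKM) and PSAT1 (53.8, 16.1 and 44.8 FPKM) and the pseudokinase TRIB3 (70.9, 22.8 and 61.5 FPKM). JUN WT was below both other libraries in these 3 genes. At equal sums the ATF4 branch had a median of -0.65, with 3 lower genes.

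Of 15 passing NRF2 targets, ferritins and metallothioneins 6 were lower and none higher, with a median of -0.35 (-0.06 at equal sums). Relative to all genes this was -0.54, and 0.10 with a filter of 5 FPKM. The 9 antioxidant genes among them had a median of 0.53, beside 0.18 for all genes, and 1 of the 9 was lower. That 1 gene was HMOX1 (heme oxygenase), at 82.6, 34.3 and 118 FPKM. Metallothioneins, small proteins that bind zinc and copper, supplied the 5 other lower genes among 6 passing, with a median of -1.499. MT1E was at 134, 77.7 and 231 FPKM and MT1F at 1.86, 0.222 and 9.24 FPKM. The metallothionein genes are near-identical in part, and their division of reads is uncertain.

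Glycolysis and hypoxia genes had 1 of 18 passing genes higher, 2 lower and a median of -0.26, which was 0.04 at equal sums. Relative to all genes this median was -0.44 as deposited and -0.43 at equal sums. The peptide hormone gene ADM was at 36.5, 48.1 and 17.9 FPKM, NDRG1 at 84.7, 17.6 and 39.6 FPKM and BNIP3 at 82.1, 52.6 and 112 FPKM. At equal sums NDRG1 was at -0.85 and BNIP3 at -0.79, so neither was 2-fold lower. None of 20 genes of cholesterol and fatty acid synthesis was 2-fold apart as deposited, with a median of 0.30, and 2 were higher at equal sums. Of 28 cornified envelope and skin barrier genes 6 passed, LCE3D was lower (listed at 0 in the control, 1.09 and 3.42 FPKM) and the median was -0.27, which was 0.01 at equal sums. Relative to all genes it was -0.46 in both settings.

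Cytosolic ribosomal protein genes were the list with the lowest median, -0.49, and -0.19 at equal sums. Relative to all genes this median was -0.67 as deposited and -0.66 at equal sums. All 57 passed, 20 were at least 2-fold lower in JUN WT, none was higher, and 7 lay above the median of all genes. RPL7 was at 806 FPKM in the control against 536 with JUN WT and 3055 with JUN AA, and RPL9 at 730, 608 and 2800 FPKM. RPS3A was at 853, 801 and 3672 FPKM and RPS24 at 928, 715 and 2786 FPKM. In these 4 genes JUN AA stood apart and JUN WT was near the control. RPL4, the member with the highest difference and outside the naming rule, was at 564, 849 and 629.5 FPKM.

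Symbols of ribosomal proteins took 18.5% of the control FPKM sum, 18.2% of that of JUN WT and 27.9% of that of JUN AA, against 10.9% to 12.8% in the 3 libraries of the other table. Ribosomal protein genes have many processed pseudogenes, so their reads may be divided in ways the table does not show. EIF3E, a subunit of a translation initiation factor, was at 107, 48.3 and 294 FPKM, ranked across the libraries as RPL7 was. Of 30 nuclear genes of the respiratory chain 2 were higher and 8 lower, with a median of 0.00 as deposited and 0.30 at equal sums. Relative to all genes this median was -0.18 and -0.17. UQCRB (32.6, 20.5 and 91.2 FPKM), COX6C (91.9, 67.3 and 244 FPKM) and NDUFB3 (46.7, 52.8 and 170 FPKM) were among the lower ones.

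Short transcripts moved with these lists. Genes were cut into 5 equal groups by the length of their canonical transcript. The group with the shortest transcripts, up to 1657 bases, had a median difference of -0.08, and 14.5% of them were at least 2-fold lower, against 1.74% of the group with the longest. The median transcript length was 887 bases on the ribosomal protein list, 894 on the respiratory chain list and 407 among metallothioneins, and 3270 on the effector list. By GC content 5 such groups had medians of 0.05, 0.35, 0.44, 0.20 and -0.15 from lowest to highest. The highest of 5 groups by level had a median of -0.06, with 12.8% lower. With trends in length and GC content removed, the list median relative to that of all genes was -0.55 instead of -0.67 for ribosomal proteins, -0.03 instead of -0.18 for the respiratory chain, -0.17 instead of -0.54 for NRF2 targets with metallothioneins, and 2.58 instead of 2.54 for the effectors. The part of level in the list differences was not tested.

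**Figure D4:**
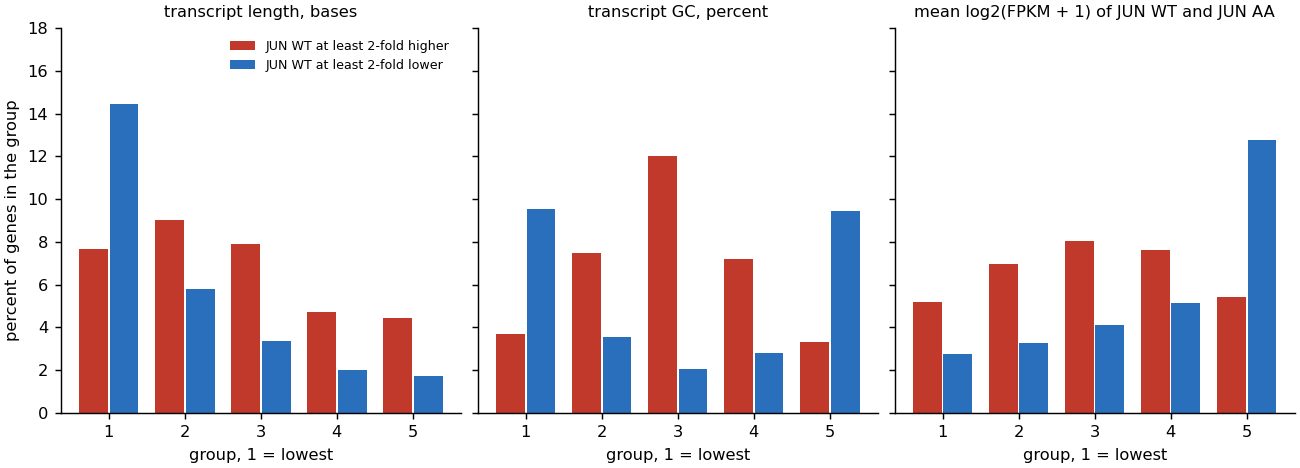
Percent of genes at least 2-fold higher (red) or lower (blue) in JUN WT than in JUN AA, in 5 equal groups by transcript length, by transcript GC content and by mean level, from the lowest group (1) to the highest (5). Lower genes made up 14.5% of the shortest group and 12.8% of the group with the highest level, and higher genes 12.04% of the middle group by GC content.

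The control levels of the genes 2-fold apart are given as a description. Among the 686 higher genes, JUN WT was at least 2-fold above the control for 294 and JUN AA at least 2-fold below it for 145, with 42 genes in which both libraries were 2-fold from the control and 281 in which neither was. For JUN WT the median difference from the control was 0.90, and for JUN AA it was -0.44. Of the 578 lower genes, JUN WT was at least 2-fold below the control for 108 and JUN AA at least 2-fold above it for 269. Over all genes JUN WT was 2-fold above the control for 6.92% and below it for 3.39%, and JUN AA for 5.29% and 3.77%. Both comparisons share the control library, and the 686 and 578 genes were chosen from the same 2 JUN libraries, so nothing is read from these counts.

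A contrast with no library in common with the JUN libraries was iCAFs against iCAFs+JNKi, in which endogenous JUN signalling was changed by the inhibitor. JNKi denotes JNK-IN-8, a covalent JNK inhibitor. The tables were normalised separately, so that differences were taken within each. Of 10020 genes passing in both tables, iCAFs were at least 2-fold higher for 174 (1.74%) and lower for 206 (2.06%). JUN was at 55.3 FPKM in iCAFs against 21.1 in iCAFs+JNKi.

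JUN WT was at least 2-fold higher for 648 of these genes (6.47%), and 56 of them were also higher in iCAFs than in iCAFs+JNKi, which is 8.64% of the 648 and 32.2% of the 174. The introduced gene JUN was among the 56. A further 18 of the 648 were lower in iCAFs. Of 529 genes lower in JUN WT (5.28%), 22 were also lower in iCAFs, 4.16% of the 529 and 10.7% of the 206, and 11 were higher. Across the 10020 genes Spearman's rho between the 2 differences was 0.09, a description over genes that share libraries and that are not independent replicates.

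Members of several lists were in the group higher in both. IL6 was at 129 FPKM in iCAFs against 16.4 in iCAFs+JNKi, HBEGF at 23.8 and 3.36 FPKM, CXCL8 at 548 and 240 FPKM and VEGFC at 79.5 and 34.2 FPKM. MMP1, ANGPTL4, SPRY2, DUSP5, NFKBIA, FOSL1 and IFIT1 were in the same group, together with ICAM1, HAS2, CCL2 and IFIT2, which were named after their values were seen. IFIT1 and IFIT2 were low there, at 1.80 and 2.83 FPKM in iCAFs against 0.396 and 0.577 in iCAFs+JNKi. The difference of IFIT1 was 1.004, just past the limit. Those lower in both included LUM, at 12.1 and 52.4 FPKM in iCAFs and iCAFs+JNKi, PRRX2, at 12.2 and 41.9 FPKM, OLFM2, at 1.52 and 11.8 FPKM, and HMOX1. These genes thus had the same direction in JUN WT against JUN AA and in iCAFs against iCAFs+JNKi. For IL6, CXCL8 and HAS2, which passed among the JUN libraries through JUN WT alone, the direction there was set by the filter.

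The 2 contrasts differed in other lists. The interferon effectors had a median of 0.12 in iCAFs minus iCAFs+JNKi over 36 genes, near the 0.11 of all genes, with 2 higher and 1 lower. IFI6 was at 24.1 FPKM in iCAFs against 27.1 in iCAFs+JNKi, and IFITM1 at 29.5 and 65.8 FPKM. Collagen chains had a median of -0.99 there, with 10 of 20 lower, and ACTA2 was at 52.8 and 411 FPKM. FST, FBLN5 and ADM were higher in JUN WT than in JUN AA and lower in iCAFs than in iCAFs+JNKi. IL1B was at 194 FPKM in iCAFs against 25.9 in iCAFs+JNKi, and LIF at 104 and 4.06 FPKM, where the JUN libraries differed little. No test of the difference between the 2 contrasts was possible with 1 library a side.

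**Figure D5:**
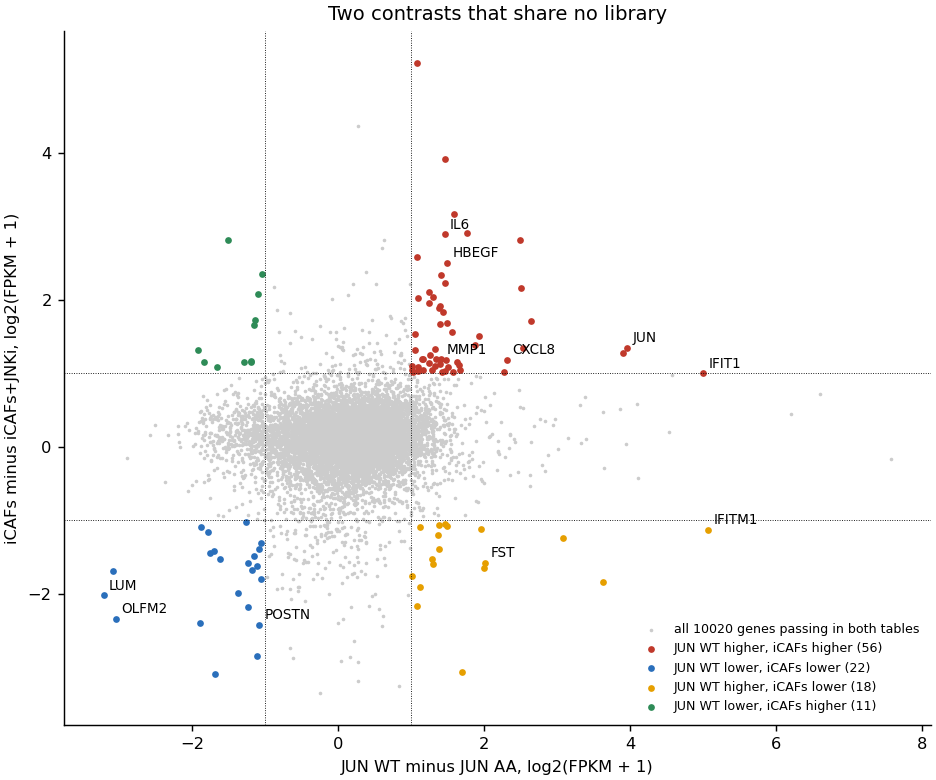
Difference between JUN WT and JUN AA (x axis) and between iCAFs and iCAFs+JNKi (y axis), both in log2(FPKM + 1), for 10020 genes; dotted lines mark a 2-fold difference and colours the genes 2-fold apart in both contrasts. The upper right corner holds 56 genes, the lower left 22, among them LUM and OLFM2, the lower right 18 and the upper left 11. The 56 include JUN, the introduced gene, and IL6, which passed among the JUN libraries through JUN WT alone.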

How the data were processed

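The authors mapped RNA-seq reads of 6 MRC5 libraries to hg19 with HISAT2 2.1.0 and deposited FPKM values per gene from StringTie 2.1.1, in 2 tables of 3 libraries each. The annotation, the strand setting and the number of reads are not given in the sources used here, so depth is unknown and no count model, interval or floor was used. Conditions were taken from the sample labels. Each table has 25370 rows and 25368 symbols; of rows sharing a symbol the one with the highest mean was kept, and 26 symbols per table had been turned into dates.

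Differences in log2(FPKM + 1) were then taken with Python 3.11.15 (numpy 2.4.6, pandas 2.3.3, scipy 1.17.1, matplotlib 3.10.9) over the genes whose mean reached 1 FPKM in the 3 libraries of a table. The procedure was tested on simulated data. With 1 library per condition no test was made. The comparison, the 25 gene lists and the 4 marker lists were chosen with earlier results of these data known. Genes named are JUN, the 12 largest differences in each direction where the mean reached 5 FPKM, up to 4 genes per list with the largest differences (some are not reported here), and VEGFC, IL1B, LIF, FGF1, ACTA2, COL11A1, HAPLN1 and CLEC3B. Names outside this rule were chosen after their values were seen, among them IRF9, IRF3, B2M, GBP2, JUND, RPL4 and COL1A1. Length, GC content, exon sharing and the JUN codons came from GRCh37 with its GENCODE annotation, with length and GC content for 91.9% of passing genes. IL6, TAPBPL, CLEC3B, CDK2, CCND1, RPS3A and NDUFB3 share exon bases with another coding gene there. Promoters came from RefSeq (GRCh38.p14). Alternatives were equal FPKM sums, centring on the median gene, a pseudocount of 0.1, no filter, a filter of 5 FPKM, a filter on the JUN libraries only, and removal of trends with length and GC content in 20 bins each.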

Additional observations from a re-analysis of the deposited data

How the results depend on the processing

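As deposited, 686 genes were 2-fold or more higher in JUN WT. Rescaling to equal FPKM sums gave 1770 such genes, a pseudocount of 0.1 gave 1151, a filter of 5 FPKM gave 438, centring gave 411 and removing trends with length and GC content gave 374. The count of lower genes was 578 as deposited and 364 at equal sums. The median over all genes was 0.18 as deposited and 0.47 at equal sums. With a pseudocount of 0.1 the genes higher in both JUN WT and iCAFs numbered 93 instead of 56, and those lower in both 41 instead of 22. Relative to the median of all genes, several list medians changed sign. With a filter of 5 FPKM the list of NRF2 targets, ferritins and metallothioneins came to 0.10, collagens to 0.04, growth factors to -0.10, the AP-1 family to -0.12, cytokines to -0.43 and the JNK pathway to -0.51. With trends removed the cornified envelope list came to 0.18 and the JNK pathway to -0.05, and with the filter on the JUN libraries alone cytokines came to -0.19. With no filter the median of all genes was itself 0.00 instead of 0.18, which alone changes every value relative to it. In that setting p53 targets came to 0.12, collagens to 0.10 and the unfolded protein list to 0.07, the same as their own medians as deposited. Prostaglandin genes came to 0.04 and matrix glycoproteins with proteoglycans to 0.02, while the respiratory chain and cornified envelope lists came to 0.00. NF-kB genes went from 0.53 to 0.04 with the filter of 5 FPKM, under which chemokines had no value. Beyond the change in the median of all genes with no filter, the cause of these shifts was not tested. Of 126 single genes compared, 111 moved by more than 0.25 at equal sums, and none that was 2-fold apart changed sign in the settings that gave it a value. With trends removed 55 moved, 65 did not and the others had no value. No paired analysis was possible because each condition has 1 library, and for the same reason no replicate could be left out. Depth is unknown, so the error of low FPKM values cannot be given.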

Other observations

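MRC5 cells without virus were in the other table, which was normalised separately. There IFI6 was at 25.8 FPKM, IFITM1 at 41.3 FPKM, MX1 at 2.44 FPKM and OAS1 at 0.126 FPKM, while OAS2 was at 0.224 FPKM. In the table of infected cells the same genes were at 875, 598, 44.4, 15.1 and 3.24 FPKM in the control and at 13.4, 24.6, 0.203 and 0.0245 FPKM in JUN AA, where OAS2 was listed at 0. DDX58 was at 4.43 FPKM in MRC5 without virus, 4.06 in the control and 0.752 in JUN AA, and STAT2 was at 27.6, 25.9 and 5.71 FPKM likewise. All these genes were picked after their values were seen, and the levels of the 2 tables stand side by side with no comparison made.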
